A study of Mus musculus with 27 samples.

Results

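Leukotrienes and prostaglandins are signalling lipids made from arachidonic acid, and 10 genes of their synthesis and breakdown were followed through cultures of mouse bone marrow: Alox5, Alox5ap, Ltc4s, Dpep2, Alox15, Ephx1, Ptgs1, Ptgs2, Hpgds and Hpgd. A gene was represented by a probe set whose platform annotation gave its symbol and no other gene, and where there were several, the probe set was chosen by its mean log2 signal over the 27 arrays, the highest being taken. This gave 9 measured genes among 19935 in all. Ptgs1 had no probe set listed with it alone and was not analysed here. Dpep2 was the only member with more than 1 probe set, with mean log2 signals of 10.08 and 7.91 over all arrays. The brighter was used and both are described.

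In the leukotriene branch, 5-lipoxygenase (Alox5) works with its helper protein FLAP (Alox5ap), which presents arachidonic acid to it, to make the unstable epoxide leukotriene A4. Leukotriene C4 synthase (Ltc4s) joins that epoxide to glutathione, and dipeptidases such as Dpep2 trim the resulting cysteinyl leukotrienes. In the prostaglandin branch, the cyclooxygenases Ptgs1 and Ptgs2 make the common precursor, Hpgds (the hematopoietic prostaglandin D synthase) turns it into prostaglandin D2, and Hpgd oxidises prostaglandins to inactive products. Alox15 encodes the mouse 12/15-lipoxygenase, known from eosinophils and some macrophages, and Ephx1 encodes microsomal epoxide hydrolase, which opens epoxides of foreign compounds and lipids. Mature myeloid cells such as neutrophils, eosinophils, mast cells and macrophages are the main bone marrow-derived sources of these lipids.

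All cells came from femurs and tibiae of C57BL/6 mice aged 8 to 12 weeks, with no genetic change named in the labels. The 9 groups of 3 biological replicates were unstimulated marrow cells, marrow cells cultured with Flt3 ligand for 12 h, 24 h, 48 h and 11 days, and marrow cells cultured equally long with Flt3 ligand plus cyclosporin A (CsA). Flt3 ligand (Flt3-L) is a cytokine on which dendritic cell development depends. CsA inhibits calcineurin, the phosphatase that activates NFAT transcription factors. It was present at 2 µg/ml from 30 min ahead of the ligand onward. The Flt3-L, about 200 ng/ml, was produced by B16 cells that had been transfected. The labels do not say whether the unstimulated cells were fresh, and no culture without Flt3-L is among the groups, so the ligand and time in culture cannot be told apart. The cultures are mixtures of cell types, and fewer cells of a type and less RNA per cell cannot be told apart in them.

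Values are log2 of the deposited array signal, a change is a difference of group means on that scale ± its SE, and 3 arrays a group limit the precision. Changes were tested with limma over all genes and 27 arrays, and a gene was called at a Benjamini-Hochberg adjusted p under 0.05. The levels of different genes are not comparable on arrays. The median signal of an array was 114.2 to 124.8 before log2, and arrays of a group correlated at 0.996 or more. Of the 27 arrays, 25 lay nearest to their own group. Array 3 of the CsA groups at 12 h and at 24 h each lay nearest to array 3 without CsA of the same time, so results at those times are also given without it. As a check of the marrow label, none of 10 neutrophil genes lay below the array median on all 3 unstimulated arrays. The same held for every group up to 48 h, so this does not separate unstimulated from early cultured cells. The mean log2 signal of the neutrophil list went from 12.54 in unstimulated cells to 7.76 after 11 days of Flt3-L. The mean of 12 monocyte and macrophage genes went from 8.86 to 11.84 and that of 10 conventional dendritic cell genes from 7.51 to 9.48.

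The stretches upstream of the start sites of 4 members are shown because these genes differed in how CsA moved them and in the letters they hold for NFAT, which calcineurin activates. They are the 250 bases before the RefSeq start in GRCm38.p6, 5′ to 3′ on the gene's own strand, and the capitals mark the NFAT core GGAAA or its reverse complement TTTCC. Ptgs2 lies at chr1:150099781-150100030 on the plus strand, Hpgd at chr8:56294302-56294551 on the plus strand, Ephx1 at chr1:181017570-181017819 on the minus strand and Hpgds at chr6:65144731-65144980 on the minus strand.
Ptgs2: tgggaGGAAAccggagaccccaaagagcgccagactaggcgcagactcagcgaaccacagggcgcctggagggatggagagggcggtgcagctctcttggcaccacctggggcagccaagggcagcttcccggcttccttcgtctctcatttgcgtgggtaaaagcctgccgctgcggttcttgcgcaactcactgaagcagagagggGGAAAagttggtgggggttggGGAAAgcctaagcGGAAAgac
Hpgd: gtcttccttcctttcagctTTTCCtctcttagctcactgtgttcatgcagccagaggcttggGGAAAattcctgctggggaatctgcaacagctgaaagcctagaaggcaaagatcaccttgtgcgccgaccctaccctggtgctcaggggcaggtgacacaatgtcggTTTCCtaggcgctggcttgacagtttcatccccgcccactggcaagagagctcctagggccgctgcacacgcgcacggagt
Ephx1: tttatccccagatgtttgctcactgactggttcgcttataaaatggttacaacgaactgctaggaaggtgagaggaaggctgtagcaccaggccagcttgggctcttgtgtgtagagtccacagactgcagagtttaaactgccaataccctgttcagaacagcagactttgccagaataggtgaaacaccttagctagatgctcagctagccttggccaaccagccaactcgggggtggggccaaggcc
Hpgds: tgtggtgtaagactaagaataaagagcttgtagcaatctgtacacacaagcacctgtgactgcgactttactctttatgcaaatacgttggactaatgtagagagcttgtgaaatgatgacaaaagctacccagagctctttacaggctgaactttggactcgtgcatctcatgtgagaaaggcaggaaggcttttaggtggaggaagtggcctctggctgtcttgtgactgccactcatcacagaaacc

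The core occurred 4 times before Ptgs2, 3 times before Hpgd and 2 times before Ltc4s, and not at all in the windows of Ephx1, Hpgds, Alox5 and Ptgs1. In all, 7 of the 10 members had a window in the RefSeq table. Of 32851 promoter windows of this length, 55.6% held the core at least once, 6.39% held it 3 or more times and 1.59% held it 4 or more times. With both strands searched, TGACG (a CRE half-site), TGANTCA (an AP-1 site) and TGACNNNGC (the core of the antioxidant response element) were in none of the 7 windows, against 17.8%, 6.75% and 10.2% of all windows. The letters GAGGAA, a core bound by the myeloid factor PU.1, were in 6 of 7, against 23.3% of all windows, and overlapped an NFAT core in Ptgs2 and in Hpgd. These matches describe letters in a short window and are not binding sites. A link between these letters and the changes with CsA was not tested.

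Flt3-L culture moved the members in opposite directions. After 11 days all 9 differed from unstimulated marrow: Dpep2, Hpgds, Ephx1, Ltc4s and Hpgd were higher, by 1.41-fold to 29.3-fold, and Alox5, Alox15, Ptgs2 and Alox5ap were lower, by 1.19-fold to 27-fold. In that comparison 51.9% of all genes were called (27.2% higher and 24.8% lower), and the median change of the members was 0.50, against 0.02 for all genes. At 12 h, 6 members were called (3 higher and 3 lower), with 36.0% of all genes called, 17.8% higher and 18.1% lower. At 24 h there were 7 (4 higher and 3 lower), with 35.6% of all genes called, 17.9% higher and 17.7% lower. At 48 h there were 8 (4 higher and 4 lower), with 37.1% of all genes called, 18.5% higher and 18.6% lower. Counts of this size stood on a background of many called genes, and the members' median changes at these times, 0.04, 0.05 and 0.07, lay near those of all genes, 0.05, 0.04 and 0.01.

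**Figure D1:**
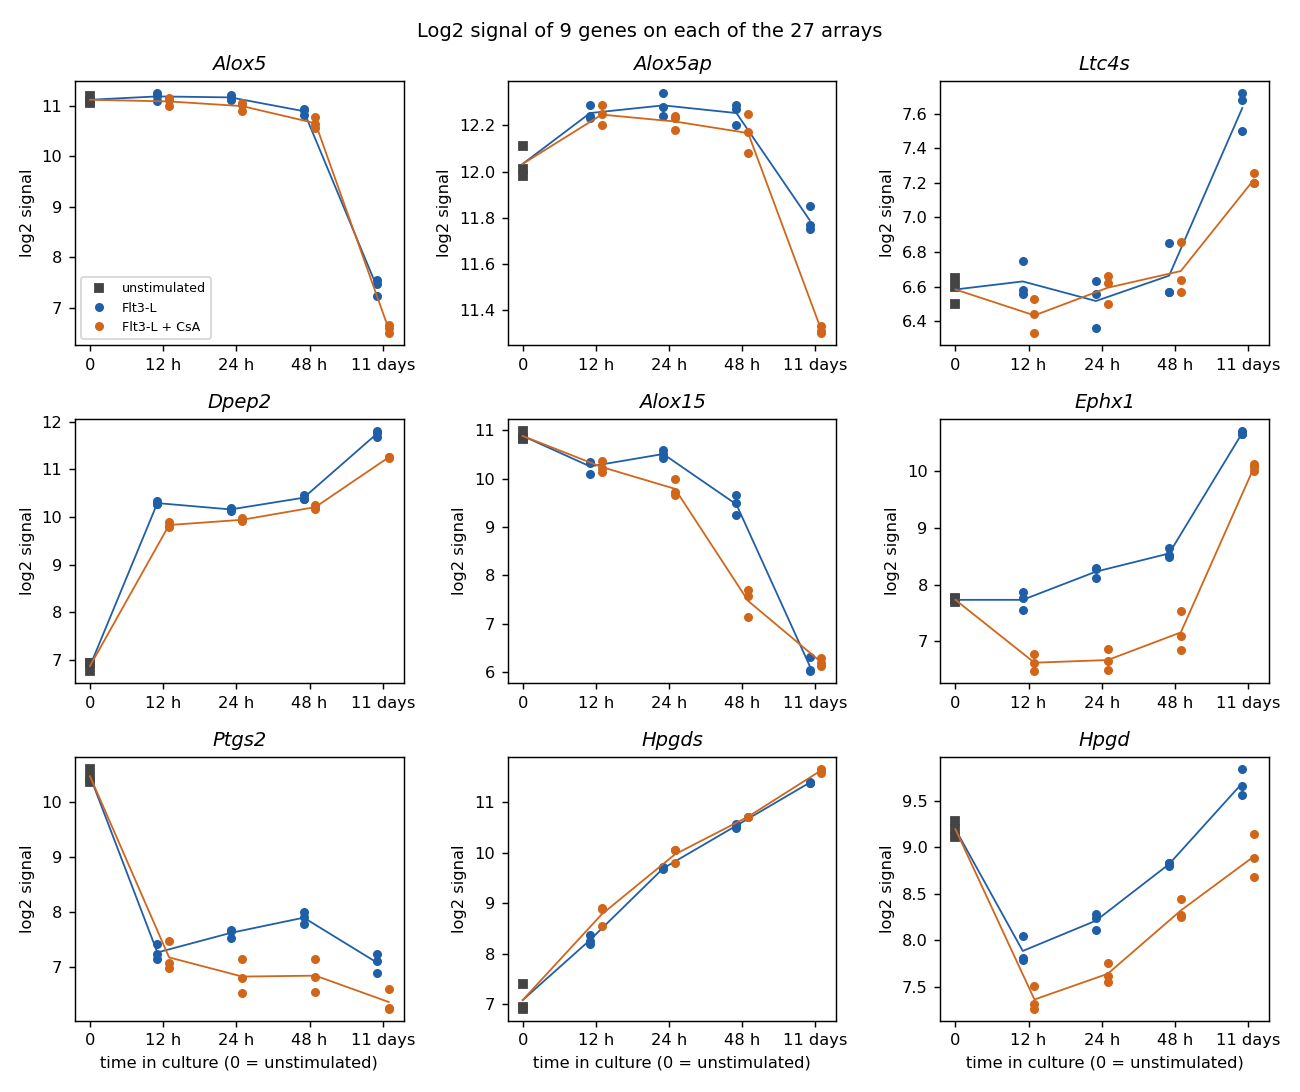
Log2 signal of the 9 measured genes (one panel each, with its own vertical scale) on every array, with unstimulated cells in grey, Flt3-L in blue and Flt3-L with CsA in orange, and lines through the group means; the 5 times are evenly spaced and not to scale. Alox15 with CsA at 48 h, between 7.14 and 7.69, lies below all 3 arrays without CsA, and Hpgds climbs through all times in both conditions.

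**Figure D2:**
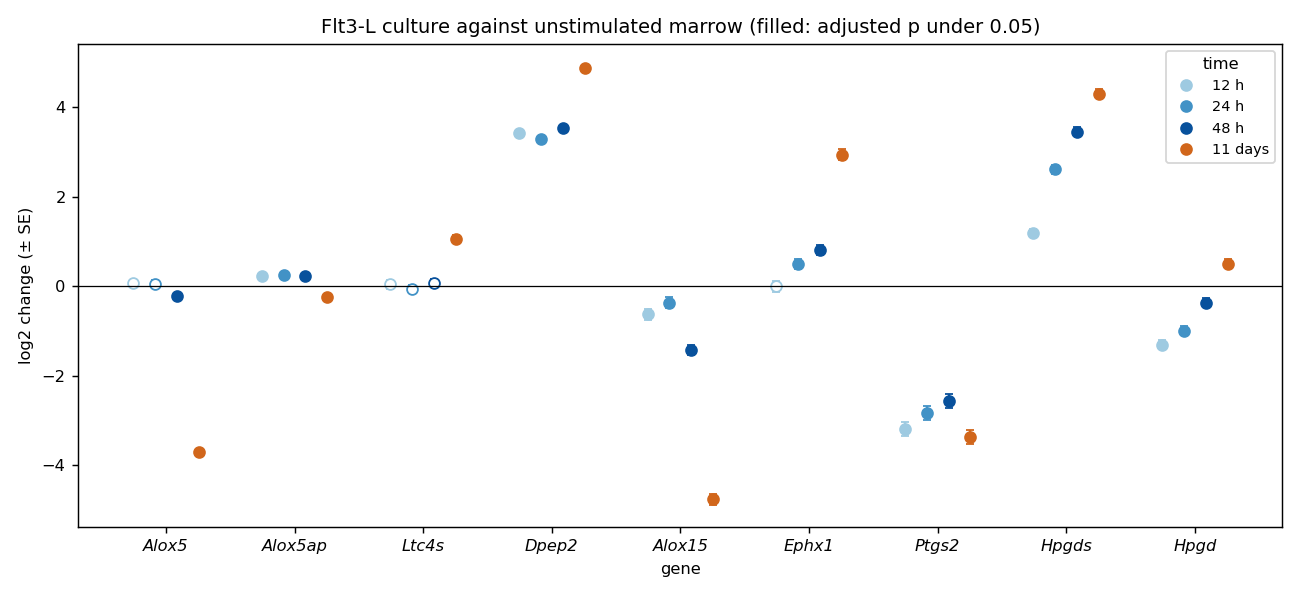
Log2 change from unstimulated marrow (± SE, 3 arrays a group) for each gene after 12 h, 24 h, 48 h and 11 days of Flt3-L, with filled points where the adjusted p was under 0.05. Dpep2 was already 3.42 higher at 12 h, whereas Alox5 lay within 0.22 of its starting level up to 48 h and had changed by -3.71 at 11 days.

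Most changes of the members with CsA were decreases. At 12 h, 4 of 9 were called against Flt3-L alone, with Ephx1, Hpgd and Dpep2 lower and Hpgds higher, while 6.73% of all genes were called, 2.82% higher and 3.91% lower. At 24 h, 5 were called and all were lower (Ephx1, Ptgs2, Alox15, Hpgd and Dpep2), with 3.78% of all genes called, 1.60% higher and 2.19% lower. The same 5 genes were called lower at 48 h, with 4.51% of all genes called, 2.17% higher and 2.34% lower. The Dpep2 calls at 12 h, 24 h and 48 h were those of its brighter probe set and were not seen with the dimmer one. At 11 days 7 were lower and none higher, with 12.0% of all genes called, 4.92% higher and 7.08% lower. Alox15 and Hpgds were the members outside the threshold. The median change of the members was -0.10, -0.22, -0.24 and -0.49 at the 4 times, against -0.04, -0.01, 0.02 and 0.03 for all genes. The members and gene lists were chosen with earlier results of these data known, so such counts and medians describe them and are not a test. The comparisons with CsA and those with unstimulated cells share the Flt3-L arrays of the same time. The share of all genes whose CsA arrays all lay below those without CsA was not counted. Such separation of a member is therefore a description. Without array 3 of the CsA group, the 4 calls at 12 h held (Ephx1 -1.03, Hpgd -0.47, Dpep2 -0.44 and Hpgds 0.62), and 4 of the 5 at 24 h held (Ephx1 -1.55, Alox15 -0.82, Ptgs2 -0.78 and Hpgd -0.56). Dpep2 at 24 h was then -0.20, with a limma adjusted p of 0.077. At 12 h the 562 higher and 779 lower calls among all genes became 1052 higher and 323 lower once each array's median was subtracted, while all 4 member calls stayed on the same side of the threshold.

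**Figure D3:**
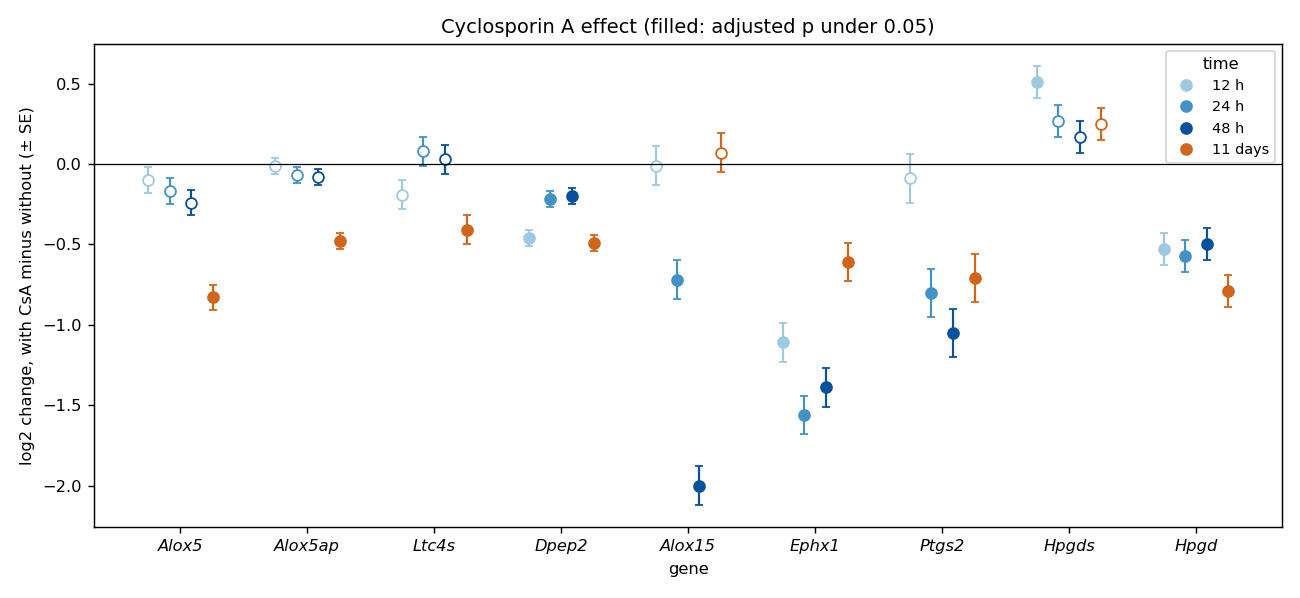
Log2 change with CsA minus without it (± SE, 3 arrays a group) for each gene at 12 h, 24 h, 48 h and 11 days, with filled points where the adjusted p was under 0.05. Ephx1 and Hpgd are below 0 and filled at all 4 times, Alox15 falls to -2.00 at 48 h and is at 0.07 at 11 days, and Hpgds is above 0 throughout.

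Alox5, which starts leukotriene synthesis, showed no called change at 12 h and 24 h of culture, was slightly lower at 48 h and far lower at 11 days. It read 11.06, 11.21 and 11.11 in the 3 unstimulated arrays, 11.11, 11.26 and 11.21 after 12 h of Flt3-L and 11.12, 11.22 and 11.18 after 24 h. The arrays of these groups overlapped, and neither change, 0.07 ± 0.08 and 0.05 ± 0.08, was called. At 48 h the values were 10.83, 10.93 and 10.94, and at 11 days 7.46, 7.22 and 7.55. The 48 h level differed from the start by -0.22 ± 0.08 (limma adjusted p = 0.022), and the 11-day level was 13.1-fold lower (-3.71 ± 0.08, adjusted p = 4.6e-23). The small decrease at 48 h was not called without unstimulated array 2 (adjusted p = 0.11) or without Flt3-L 48 h array 1 (adjusted p = 0.098).

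With CsA, Alox5 read 11.00, 11.16 and 11.12 at 12 h, 10.90, 11.07 and 11.03 at 24 h and 10.56, 10.78 and 10.64 at 48 h. The changes of -0.10, -0.17 and -0.24 (each ± 0.08) were not called. The 48 h change had a limma adjusted p of 0.068, but 0.016 to 0.043 under 6 other settings, among them the replicate number as a block (0.043). At 11 days the values were 6.65, 6.49 and 6.59, all below the arrays without CsA, and Alox5 was 1.78-fold lower (-0.83 ± 0.08, adjusted p = 1e-08). These values with CsA lay below the median signal of every array, so the size of the decrease is less certain. The CsA effect was more negative at 11 days than at 48 h, with a difference of -0.59 ± 0.11 (limma adjusted p = 0.00062). The neutrophil genes moved with it: with CsA at 11 days 9 of 10 were lower and none higher, and their mean log2 signal was between 6.23 and 6.57, against 7.70 to 7.87 without CsA. Of these genes, 7 lay below the array median on every 11-day array with CsA and 4 on every one without. At 48 h 2 of the 10 were lower. The part of neutrophils in the Alox5 result was not tested.

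Alox5ap, the FLAP gene, changed far less. Its values were 11.98, 12.11 and 12.01 in unstimulated cells, 12.23, 12.29 and 12.24 at 12 h, 12.24, 12.34 and 12.28 at 24 h and 12.20, 12.27 and 12.29 at 48 h of Flt3-L. All arrays of the 3 early times lay above all unstimulated ones, with limma changes of 0.22, 0.25 and 0.22 (each ± 0.05) and adjusted p of 0.00096, 0.00019 and 0.00084. At 11 days the order turned, with 11.75, 11.77 and 11.85 on the 3 arrays and a change from unstimulated of -0.25 ± 0.05 (adjusted p = 0.00014). With CsA it read 12.20, 12.29 and 12.25 at 12 h, 12.18, 12.24 and 12.23 at 24 h and 12.08, 12.25 and 12.17 at 48 h, overlapping the arrays without CsA at 12 h and 48 h. None of those changes, from -0.08 to -0.01, was called. At 11 days CsA gave 11.31, 11.33 and 11.30, a decrease of 1.39-fold (-0.48 ± 0.05, limma adjusted p = 1.1e-07). The later effect was more negative than that at 48 h, with a difference of -0.39 ± 0.07 (adjusted p = 0.00057).

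Ltc4s, which commits leukotriene A4 to the cysteinyl leukotrienes, showed no called change up to 48 h and was higher at 11 days. Over the unstimulated, 12 h, 24 h and 48 h arrays with and without CsA, its log2 signal ran from 6.33 to 6.86. No tested change among these groups was called. These values lay near or below the array median, and changes of so dim a signal would be hard to see. At 11 days of Flt3-L it read 7.50, 7.72 and 7.68, above every earlier array and 2.06-fold above unstimulated cells (1.05 ± 0.09, limma adjusted p = 1.3e-10). With CsA the 11-day values were 7.26, 7.20 and 7.20, again without overlap, and 1.33-fold lower (-0.41 ± 0.09, adjusted p = 0.0018). The CsA effects at 11 days and 48 h differed by -0.44 ± 0.13 (limma adjusted p = 0.03), but this difference was lost without any of 7 single arrays: Flt3-L arrays 2 and 3 at 48 h and at 11 days, CsA array 1 at 48 h and CsA arrays 2 and 3 at 11 days. The adjusted p was then 0.064 to 0.1. It was also lost in the fit of only the groups compared (adjusted p = 0.074).

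Dpep2, the dipeptidase of the cysteinyl leukotriene branch, was already raised at 12 h. Its brighter probe set read 6.77, 6.93 and 6.93 in unstimulated cells and 10.27, 10.34 and 10.27 after 12 h of Flt3-L. It read 10.16, 10.20 and 10.12 at 24 h, 10.38, 10.47 and 10.37 at 48 h and 11.77, 11.67 and 11.81 at 11 days. The 24 h arrays lay below those of 12 h (-0.13 ± 0.05, limma adjusted p = 0.13), and the rise from 24 h to 48 h was called (0.25 ± 0.05, 0.0014). The arrays of cultured and unstimulated cells were far apart at each time, and the 12 h change of 3.42 ± 0.05 ranked 4th from the top of 19935 genes. With CsA the values were 9.81, 9.89 and 9.80 at 12 h, 9.93, 9.99 and 9.91 at 24 h, 10.16, 10.26 and 10.21 at 48 h and 11.27, 11.24 and 11.25 at 11 days, below all arrays without CsA at each time. The limma changes were -0.46 (adjusted p = 1.3e-05), -0.22 (0.015), -0.20 (0.029) and -0.49 (1.8e-07), each ± 0.05. The call at 24 h was lost without Flt3-L array 1 or 2 or CsA array 1 or 3 of that time (adjusted p 0.052 to 0.086), and that at 48 h without Flt3-L array 1 or 2 or CsA array 1 or 3 (0.051 to 0.15). Both were also lost in the fit of only the groups compared (0.13 and 0.18).

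The dimmer Dpep2 probe set also rose with Flt3-L, by less than the brighter one, and did not show its early CsA effect. It read 6.48, 6.18 and 6.13 in unstimulated cells, 7.53, 7.99 and 7.84 at 12 h, 7.79, 7.81 and 7.45 at 24 h, 8.21, 8.19 and 7.95 at 48 h and 9.01, 9.45 and 9.23 at 11 days of Flt3-L. It rose by 1.52, 1.42, 1.85 and 2.97 (each ± 0.14) on the log2 scale at the 4 times, against 3.42, 3.28, 3.53 and 4.87 (each ± 0.05) for the brighter set, and no cultured array overlapped the unstimulated ones. With CsA it read 7.73, 7.92 and 7.64, then 7.96, 7.93 and 7.53, then 8.10, 8.26 and 8.08 at the 3 early times, which overlapped the arrays without CsA. Its CsA changes there were -0.02, 0.12 and 0.03 (each ± 0.14), with limma adjusted p of 0.93, 0.83 and 0.96 over all probe sets with a single gene. At 11 days it read 8.51, 8.26 and 8.38 and was 1.80-fold lower (-0.85 ± 0.14, adjusted p = 6.1e-05). With the mean of both probe sets as the gene's value, the CsA calls at 12 h, 24 h and 48 h were lost (adjusted p = 0.062, 0.9 and 0.75) and that at 11 days held. A lower Dpep2 signal with CsA was thus called with both probe sets at 11 days only. With an SE of 0.14, the 0.03 of the dimmer set at 48 h does not exclude the brighter set's -0.20.

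**Figure D4:**
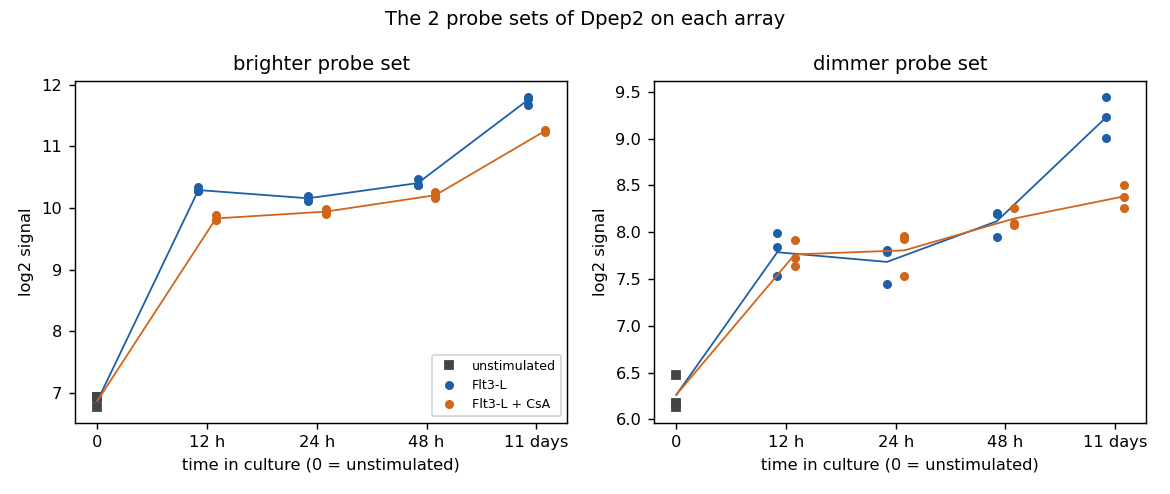
Log2 signal of the brighter (left) and dimmer (right) Dpep2 probe sets on every array, with unstimulated cells in grey, Flt3-L in blue and Flt3-L with CsA in orange, on separate vertical scales and with times evenly spaced. With CsA the brighter set is lower at all 4 times, while the dimmer set overlaps at 12 h, 24 h and 48 h and separates at 11 days.

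Alox15, the 12/15-lipoxygenase gene, showed the largest CsA change of any member, at 48 h. It read 10.82, 10.84 and 10.99 in unstimulated cells, 10.09, 10.33 and 10.34 at 12 h of Flt3-L, 10.43, 10.51 and 10.59 at 24 h, 9.24, 9.49 and 9.67 at 48 h and 6.05, 6.32 and 6.02 at 11 days. Every cultured array lay below the unstimulated ones, with mean changes of -0.63, -0.37, -1.42 and -4.76 (each ± 0.12), the last a 27-fold difference. The 24 h decrease (limma adjusted p = 0.017) was not called without unstimulated array 3 (0.082) or Flt3-L 24 h array 1 (0.07). With CsA the values were 10.14, 10.22 and 10.36 at 12 h, 9.66, 9.72 and 9.99 at 24 h, 7.14, 7.58 and 7.69 at 48 h and 6.13, 6.28 and 6.19 at 11 days. The groups overlapped at 12 h and at 11 days, and at 24 h and 48 h all CsA arrays lay below the others.

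At 48 h Alox15 was 4-fold lower with CsA (-2.00 ± 0.12, limma adjusted p = 4e-10), ranked 2nd from the lowest change of 19935 genes. At 24 h it was 1.65-fold lower (-0.72 ± 0.12, adjusted p = 0.00054), and at 12 h and 11 days the changes were -0.01 ± 0.12 (0.96) and 0.07 ± 0.12 (0.78). The effect at 48 h minus that at 12 h was -1.99 ± 0.17 on the log2 scale (adjusted p = 6.7e-07), and the effect at 11 days was 2.07 ± 0.17 higher than that at 48 h (adjusted p = 1.1e-08). In this last comparison no other of the 19935 genes had a higher difference. By 11 days the gene had already reached 6.13 without CsA, below its 48 h level of 7.47 with CsA. Its 11-day arrays with and without CsA, from 6.02 to 6.32, lay below the median signal of every array. A decrease with CsA would be hard to see at that level.

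Eosinophil and basophil genes were lower with CsA at 24 h and 48 h, when Alox15 was, and many also at 11 days, when Alox15 was not called. With CsA, 2 of 6 eosinophil genes were lower at 12 h (Prg2 and Siglecf), all 6 at 24 h, all 6 at 48 h, and 5 at 11 days, with none higher. Their mean log2 signal at 24 h was between 8.62 and 8.82 with CsA and between 9.56 and 9.68 without, and at 48 h between 7.69 and 7.85 against 8.73 to 8.86. At 11 days it was still separate, between 6.33 and 6.48 with CsA and between 7.22 and 7.35 without. Of 8 mast cell and basophil genes, 0, 5, 7 and 3 were lower at the 4 times and none higher. Their mean at 48 h was between 7.69 and 7.87 with CsA and between 8.34 and 8.47 without, and at 11 days between 5.69 and 5.93 against 5.95 to 6.26. At 11 days without CsA, Epx, Prg3 and Il5ra of the eosinophil list lay below the array median on every array, and with CsA Prg2 did as well. Of the 8 mast cell and basophil genes, 6 lay below it on every 11-day array with CsA and 6 on every one without. The eosinophil chemokine receptor gene Ccr3 was also lower with CsA at 48 h (-2.00 ± 0.13, limma adjusted p = 1.4e-09), and, like 4 other genes of its list, at 11 days (-1.97 ± 0.13, adjusted p = 7e-11). With Flt3-L alone, Ccr3 was the only gene of its list called above unstimulated cells, at 24 h and at 11 days. At these times 3 and 5 genes of the list were called lower. The part of eosinophils, mast cells and basophils in the Alox15 result was not tested.

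**Figure D5:**
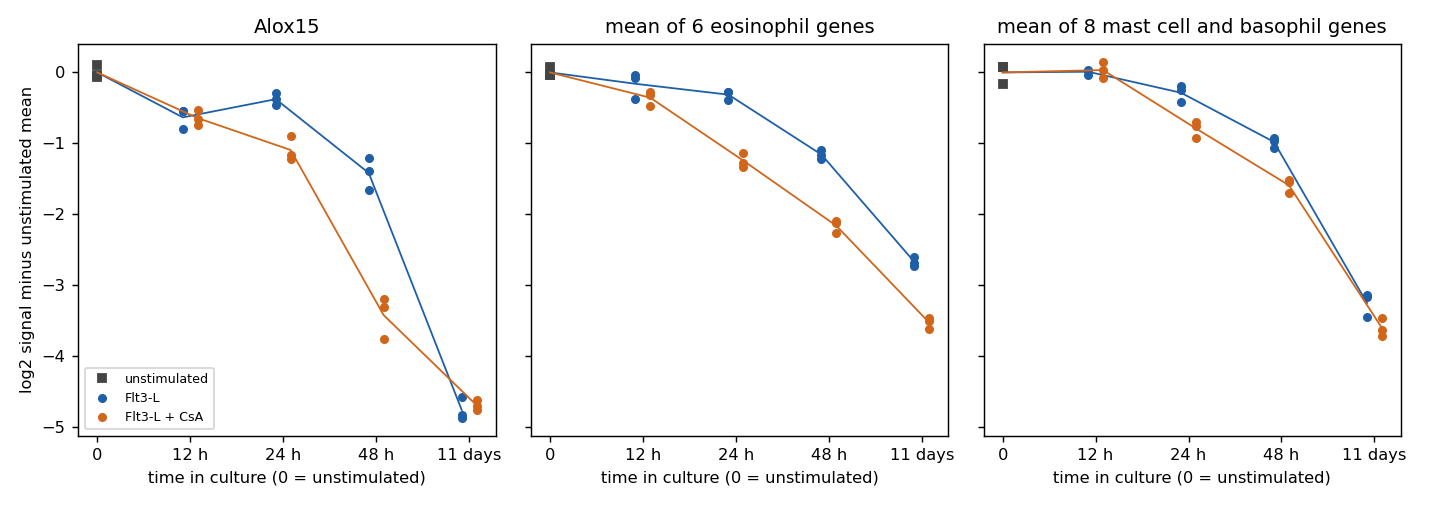
Log2 signal minus the unstimulated mean on every array for Alox15 (left), the mean of 6 eosinophil genes (middle) and the mean of 8 mast cell and basophil genes (right), with unstimulated cells in grey, Flt3-L in blue and Flt3-L with CsA in orange and times evenly spaced. All 3 separate by CsA at 24 h and 48 h, and at 11 days the Alox15 arrays with and without CsA overlap while the eosinophil means do not.

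Ephx1, the epoxide hydrolase gene, was lower with CsA at every time. With Flt3-L alone it read 7.77, 7.55 and 7.88 at 12 h, close to 7.75, 7.69 and 7.76 in unstimulated cells, and then 8.30, 8.11 and 8.28 at 24 h, 8.65, 8.52 and 8.48 at 48 h and 10.71, 10.66 and 10.65 at 11 days. The 12 h arrays overlapped the unstimulated ones, and the later groups lay above them, by 0.50, 0.81 and 2.94 (each ± 0.12), the last a 7.66-fold rise. With CsA the values were 6.62, 6.78 and 6.48 at 12 h, 6.87, 6.50 and 6.65 at 24 h, 7.53, 6.85 and 7.10 at 48 h and 10.07, 10.00 and 10.13 at 11 days. All CsA arrays lay below those without it at each time, and at the 3 early times they also lay below the unstimulated level. The decreases were 2.15-fold at 12 h (-1.11, limma adjusted p = 5e-06), 2.95-fold at 24 h (-1.56, 1.1e-08), 2.62-fold at 48 h (-1.39, 6e-08) and 1.52-fold at 11 days (-0.61, 0.00069), each ± 0.12. Counted from the lowest change of the 19935 genes, these ranked 3rd, 4th and 12th at 12 h, 24 h and 48 h. With CsA the means at 12 h and 24 h, 6.63 and 6.67, lay below the median of every array, so the sizes of those decreases are less certain. The effect at 11 days was 0.78 ± 0.17 weaker than at 48 h (limma adjusted p = 0.0035), so the rise of Ephx1 between 48 h and 11 days was larger with CsA than without.

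Among 12 monocyte and macrophage genes, 7 rose and 4 fell (Mrc1 and the complement genes C1qa, C1qb and C1qc) against unstimulated cells at 12 h, 9 rose at 24 h and all 12 at 48 h and 11 days, with none lower at those times. With CsA, 3, 2, 1 and 0 of them were lower at the 4 times and 0, 1, 1 and 1 higher. Cd14, a co-receptor for bacterial lipopolysaccharide, was lower at 12 h, 24 h and 48 h. The mean log2 signal of the list with CsA was between 8.60 and 8.96 at 12 h (8.91 to 9.13 without), between 10.06 and 10.21 at 24 h (10.03 to 10.17) and between 10.77 and 10.85 at 48 h (10.84 to 10.90), overlapping at each of these times and leaning lower at 12 h and 48 h. The part of these cells in the Ephx1 result was not tested. At 11 days the list was between 11.92 and 11.96 with CsA and between 11.80 and 11.88 without, and 9 of 10 conventional dendritic cell genes were lower with CsA (8.47 to 8.89, against 9.42 to 9.56). Lymphoid and plasmacytoid lists were lower as well. Of 7 B lineage genes, 0, 2, 5 and 5 were lower with CsA at the 4 times and none higher, and their mean was between 9.04 and 9.29 at 48 h (9.53 to 9.70 without CsA) and between 6.66 and 6.75 at 11 days (7.57 to 7.73). At 11 days 4 of 7 T and NK cell genes were lower and none higher (5.49 to 5.61, against 5.76 to 6.56), with 6 of the 7 below the array median on every CsA array and 4 of 7 without CsA. Of 7 plasmacytoid dendritic cell genes, 4 were lower and 2 higher at 11 days (7.92 to 8.12, against 8.44 to 8.58). In the erythroid list 1 gene was higher at 24 h and at 48 h and 1 lower at 11 days, in the megakaryocyte list 2 were lower at 11 days, and in the stromal and endothelial list 1 was lower at 48 h and 2 were higher and 2 lower at 11 days. The part of all these cell types in the lower members was not tested.

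Ptgs2, the inducible cyclooxygenase gene with 4 NFAT cores in its window above, was highest in unstimulated marrow. It read 10.35, 10.60 and 10.43 there, 7.15, 7.42 and 7.24 at 12 h, 7.53, 7.68 and 7.66 at 24 h, 7.78, 8.01 and 7.91 at 48 h and 6.90, 7.11 and 7.25 at 11 days of Flt3-L. All cultured arrays were far below the unstimulated ones, with changes of -3.19 at 12 h, -2.83 at 24 h, -2.56 at 48 h and -3.37 at 11 days (each ± 0.15), which is 5.90-fold to 10.4-fold. The 3 means from 12 h to 48 h went up from 7.27 to 7.90 without CsA, but neither step, 0.36 nor 0.27, was called (limma adjusted p = 0.16 and 0.26). In the fit of only the groups compared both were called (0.019 and 0.044), and with array weights the first was (0.047). With CsA the means at those times were 7.18, 6.83 and 6.85, and the arrays read 7.08, 7.47 and 6.99 at 12 h, 6.54, 7.16 and 6.80 at 24 h, 6.56, 7.16 and 6.83 at 48 h and 6.61, 6.25 and 6.26 at 11 days.

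CsA and control arrays of Ptgs2 overlapped at 12 h (-0.09 ± 0.15, limma adjusted p = 0.71) and were separate at the later times. Ptgs2 was 1.74-fold lower at 24 h (-0.80 ± 0.15, adjusted p = 0.0018), 2.07-fold lower at 48 h (-1.05 ± 0.15, 6.8e-05) and 1.64-fold lower at 11 days (-0.71 ± 0.15, 0.0015). With CsA its means at these times, 6.83, 6.85 and 6.37, lay near or below the array medians, so the sizes of these decreases are less certain. The 48 h effect differed from the 12 h effect by -0.96 ± 0.21 (adjusted p = 0.035). That difference was not called without any of 7 single arrays: Flt3-L arrays 1 and 3 and CsA array 2 at 12 h, and Flt3-L arrays 2 and 3 and CsA arrays 1 and 3 at 48 h (adjusted p 0.062 to 0.12). It was not called in the fit of only the groups compared either (0.081). It was 1 of 2 member differences called between 48 h and 12 h, the other being Alox15, in a comparison with 0.773% of all genes called, 0.441% higher and 0.331% lower (88 and 66 genes, or 30 and 90 with each array's median subtracted). Between 11 days and 48 h, 6 member effects differed, 2 upward and 4 downward, with 6.96% of all genes called, 2.31% higher and 4.65% lower.

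Hpgds, the prostaglandin D synthase of blood cells, rose at every step. Its values were 7.40, 6.94 and 6.91 in unstimulated cells, 8.37, 8.26 and 8.19 at 12 h of Flt3-L, 9.68, 9.69 and 9.71 at 24 h, 10.50, 10.57 and 10.55 at 48 h and 11.41, 11.38 and 11.38 at 11 days. No 2 of these groups overlapped, and the changes from unstimulated cells were 1.19, 2.61, 3.45 and 4.30 (each ± 0.10), the last 19.8-fold. Between consecutive times it rose by 1.42 from 12 h to 24 h (limma adjusted p = 1.2e-10), by 0.84 to 48 h (6.1e-07) and by 0.85 to 11 days (5.8e-08). With CsA it read 8.91, 8.88 and 8.56 at 12 h, 10.05, 10.06 and 9.80 at 24 h, 10.71, 10.72 and 10.72 at 48 h and 11.65, 11.59 and 11.67 at 11 days. Hpgds thus lay above all arrays without CsA at each time, as did 12.0%, 7.41%, 11.7% and 17.2% of all genes at the 4 times. The 12 h change of 0.51 ± 0.10 (1.43-fold) was called (limma adjusted p = 0.0032, or 0.054 in the fit of only the groups compared). Those of 0.27 ± 0.10, 0.17 ± 0.10 and 0.25 ± 0.10 at 24 h, 48 h and 11 days were not (adjusted p = 0.15, 0.44 and 0.11), although the fit of only the groups compared called that at 11 days (0.02). Without unstimulated array 1, which read highest for Hpgds in its group, the 24 h and 11-day changes were called (adjusted p = 0.037 and 0.026). No member other than Hpgds was called higher with CsA at any time.

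Hpgd, which inactivates prostaglandins, fell early and recovered. It read 9.20, 9.11 and 9.28 in unstimulated cells, 8.05, 7.79 and 7.81 at 12 h of Flt3-L, 8.24, 8.28 and 8.11 at 24 h, 8.80, 8.83 and 8.83 at 48 h and 9.66, 9.85 and 9.57 at 11 days. The early groups lay below the unstimulated arrays, with changes of -1.31, -0.99 and -0.37 (each ± 0.10), and the 11-day group lay 0.50 ± 0.10 above them (limma adjusted p = 1e-04). With CsA the values were 7.51, 7.31 and 7.26 at 12 h, 7.55, 7.75 and 7.61 at 24 h, 8.44, 8.25 and 8.27 at 48 h and 9.14, 8.68 and 8.89 at 11 days. The CsA arrays lay below those without it at each time. At 11 days only the CsA array at 9.14 reached the unstimulated range, and those at 8.68 and 8.89 lay below it. The CsA groups were not tested against unstimulated cells. Against Flt3-L alone the changes with CsA were -0.53 (limma adjusted p = 0.0028), -0.57 (0.00065), -0.50 (0.0022) and -0.79 (1.7e-06), each ± 0.10, or 1.42-fold to 1.73-fold. Neither difference between these effects, 0.02 ± 0.14 for 48 h minus 12 h and -0.29 ± 0.14 for 11 days minus 48 h, was called (adjusted p = 0.94 and 0.28).

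Between consecutive Flt3-L times, 3 members were called from 12 h to 24 h (Hpgds, Ephx1 and Hpgd, all higher), with 11.1% of all genes called, 5.59% higher and 5.52% lower. From 24 h to 48 h, 5 were called, with Hpgds, Hpgd and Dpep2 higher and Alox15 and Alox5 lower, against 17.1% of all genes, 9.71% higher and 7.43% lower. From 48 h to 11 days all 9 were called, 5 higher and 4 lower, against 43.0% of all genes, 24.2% higher and 18.8% lower. The largest steps were the last ones of Alox5 (-3.49 ± 0.08) and Alox15 (-3.34 ± 0.12), 11.3-fold and 10.1-fold. In the first step, the Hpgd call (0.32 ± 0.10, limma adjusted p = 0.033) was lost without Flt3-L array 2 or 3 of 12 h or Flt3-L array 1 or 2 of 24 h (adjusted p 0.092 to 0.15), and the Ephx1 call was at an adjusted p of 0.05 without Flt3-L 12 h array 2. The decrease of Alox5 from 24 h to 48 h (-0.27 ± 0.08, limma adjusted p = 0.013) was not called without Flt3-L 24 h array 2 (0.056) or Flt3-L 48 h array 1 (0.064).

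Of 59 other genes of arachidonic acid release, eicosanoid synthesis, breakdown, transport and reception, 55 were measured. With CsA, 3 were higher and 4 lower at 12 h, 1 and 4 at 24 h, 2 and 4 at 48 h, and 3 and 12 at 11 days. As shares of the 55 these are 5.45% and 7.27%, 1.82% and 7.27%, 3.64% and 7.27%, and 5.45% and 21.8%, against 2.82% and 3.91%, 1.60% and 2.19%, 2.17% and 2.34%, and 4.92% and 7.08% of all genes. Their median changes of -0.05, 0.01, -0.02 and -0.02 lay near those of all genes. Among the phospholipase genes, Pla2g7, which breaks down platelet-activating factor and oxidised phospholipids, was lower with CsA at all 4 times, with changes of -0.57, -0.27, -0.35 and -0.79 (each ± 0.07). Its limma adjusted p ran from 2.8e-09 at 11 days to 0.019 at 24 h. In leukotriene breakdown, Cyp4f18, a cytochrome that oxidises leukotriene B4 in neutrophils, was 2.10-fold lower at 24 h (-1.07 ± 0.13) and 2.33-fold lower at 48 h (-1.22 ± 0.13, adjusted p = 9.2e-07), and still lower at 11 days (-0.63 ± 0.13). In the prostaglandin branch, Ptges, an inducible prostaglandin E synthase, was higher with CsA at 12 h, 24 h and 48 h (0.29, 0.49 and 0.37, each ± 0.07, limma adjusted p = 0.014, 7.4e-05 and 0.0015). It was the only gene of this list higher at all 3 of those times, while Ptgs2 was lower at 24 h and 48 h. Among the prostaglandin receptors, Ptger3 was higher at 48 h (0.34 ± 0.09) and lower at 11 days (-0.42 ± 0.09), and Ptger4 was lower at 24 h, 48 h and 11 days (-0.21, -0.22 and -0.26, each ± 0.06). Both encode receptors for prostaglandin E2. The prostaglandin D2 receptor gene Ptgdr2 was lower at 12 h (-0.33 ± 0.10). At 11 days the carbonyl reductase gene Cbr3 (-0.65 ± 0.09), the dipeptidase gene Dpep3 (-0.47 ± 0.07) and the cysteinyl leukotriene receptor gene Cysltr1 (-0.37 ± 0.12) were lower, and Prxl2b, a prostaglandin F synthase gene, was higher (0.43 ± 0.08). Ggt5, whose enzyme acts on leukotriene C4, was lower at 24 h (-0.52 ± 0.12). The lipoxygenase genes Alox12b and Alox12e were lower at 12 h (-0.25 ± 0.07) and at 48 h (-0.31 ± 0.08). Ptgdr2, Alox12b and Alox12e were dim in these comparisons, with group means below the median of every array. With and without CsA the means were 6.13 and 6.46, 5.50 and 5.75, and 5.92 and 6.23.

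Against unstimulated marrow, 9 of the 55 were higher and 13 lower at 12 h, 18 and 11 at 24 h, 18 and 10 at 48 h, and 23 and 17 at 11 days. These are 16.4% and 23.6%, 32.7% and 20.0%, 32.7% and 18.2%, and 41.8% and 30.9% of the 55, against 17.8% and 18.1%, 17.9% and 17.7%, 18.5% and 18.6%, and 27.2% and 24.8% of all genes. The lower share at 24 h and 48 h and the higher share at 12 h lay near that background. At 11 days Pla2g15, a lysosomal phospholipase gene, was 4.79-fold higher (2.26 ± 0.07) and Alox12, the platelet 12-lipoxygenase gene, 5.60-fold lower (-2.49 ± 0.20). Mgst2, a glutathione transferase that can also make leukotriene C4, was 4.58-fold lower (-2.19 ± 0.08), while Ltc4s was higher. Lta4h, which makes leukotriene B4 from the product of Alox5, was 2.91-fold lower (-1.54 ± 0.07), and Cyp4f18 was 3.09-fold lower (-1.63 ± 0.13). The leukotriene B4 receptor gene Ltb4r1 was 5.69-fold lower (-2.51 ± 0.09), and Cysltr1 was 5.59-fold higher (2.48 ± 0.12). In the prostaglandin branch, the thromboxane synthase gene Tbxas1 was 4.34-fold higher (2.12 ± 0.05), Cbr3 5.24-fold higher (2.39 ± 0.09) and Ptger3 1.95-fold higher (0.97 ± 0.09). Among the other epoxide hydrolases, Ephx2 was 1.30-fold lower (-0.38 ± 0.07), from 5.18 to 4.81, both below the median of every array. Each of these 11 changes was called, with limma adjusted p from 4.1e-21 for Tbxas1 to 4.8e-05 for Ephx2.

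The genes whose 9 group means followed a member most closely were found among 3705 genes whose means spanned at least 1 on the log2 scale, and the correlations are descriptions over 9 groups that share a time course. Alox5 was followed by Gapt (Pearson r = 0.9995), Retnlg (0.9989) and Myb (0.9989), and Alox5ap by Cyb561a3 (0.9934), Bst1 (0.9877) and Lsp1 (0.9851). Those closest to Ltc4s were Gpr85 (0.9967), Mical2 (0.9924) and Timp1 (0.9921), and those closest to Dpep2 were Csf2rb2 and Ptafr (both 0.9846) and Tnfrsf1b (0.9820). Alox15 was closest to Cd8b1 (0.9906), Myl4 (0.9875) and Gata2 (0.9860), the last of which is in the mast cell and basophil list. For Ephx1 they were Aldh1b1 (0.9724), Cd300ld (0.9707) and Cd14 (0.9707). Ptgs2 was followed by Zfp36 (0.9980), Ier2 (0.9699) and Nr4a1 (0.9686), Hpgds by Cndp2 (0.9963), Anpep (0.9947) and Lamp1 (0.9946), and Hpgd less closely by Prr5l (0.9459), Dipk2a (0.9417) and Il13ra1 (0.9363). Among the members themselves, Alox5 and Alox5ap had r = 0.94, Alox5 and Ltc4s -0.92, and Ptgs2 and Dpep2 -0.87.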

How the data were processed

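Total RNA was hybridised to 27 Affymetrix arrays of 1 colour. The authors deposited 1 intensity per probe set and array, from 5.2 to 18180.7 and so not on a log scale. RMA is named for it, without a version, per the submitters' processing notes. RNA was extracted with Trizol and amplified with a whole transcript kit, per the labels' protocols. The genome build and probe grouping are not given in the sources used here. RMA's normalization across arrays hides shifts shared by most genes. Log2 was taken here.

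Of 28815 probe sets, 21780 had a single gene symbol in the platform annotation. For 998 genes with several probe sets the one with the highest mean was used. Group means were fitted with limma 3.58.1 (R 4.3.3) over 19935 genes (lmFit and eBayes) with p-values adjusted per comparison by Benjamini-Hochberg, and the script was tested on simulated data. The p-values measure the spread between biological replicates, 3 a group, pooled over all 9 groups for each gene and moderated across genes. Arrays of groups that were not compared thus also enter each SE and p-value. The members and gene lists were chosen with earlier results of these data known.

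Named were all members, the 3 genes most like each by group means (clones, predicted and small RNA genes left out), and, per role of the pathway list, the genes with the largest called changes with CsA and at 11 days of Flt3-L (at most 3 a comparison). The 11-day CsA counts of all 11 marker lists are given, and earlier ones for part of the lists. Deviations of arrays with equal replicate numbers correlated above 0.1 in every pair between CsA and Flt3-L alone at 24 h (lowest 0.346) and 48 h (lowest 0.178), and between unstimulated cells and Flt3-L at 12 h (lowest 0.103) and 24 h (lowest 0.126). This pairing was seen in the data and is not stated in the labels, and the other 4 of these 8 comparisons did not show it in every pair. Alternatives were other variance models, scalings, filters, probe set rules, array weights, a replicate block and leaving out each array. Fitting every probe set on its own was added after the data were seen. Promoter windows came from RefSeq (GRCm38.p6) tables. Python 3.11.15 with matplotlib 3.10.9 drew the plots, and pandas 2.3.3 with numpy 2.4.6 handled tables.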

Additional observations from a re-analysis of the deposited data

Results flagged for a closer look

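The CsA effect differed between times for 7 members, by a limma test of the difference itself. From 12 h to 48 h it became more negative for Alox15 (-1.99, adjusted p = 6.7e-07) and Ptgs2 (-0.96, adjusted p = 0.035). From 48 h to 11 days it became more negative for Alox5 (-0.59, adjusted p = 0.00062), Alox5ap (-0.39, adjusted p = 0.00057), Ltc4s (-0.44, adjusted p = 0.03) and Dpep2 (-0.29, adjusted p = 0.014). Over the same interval it became less negative for Ephx1 (0.78, adjusted p = 0.0035) and for Alox15 (2.07, adjusted p = 1.1e-08). The dimmer Dpep2 probe set gave -0.88 for that difference (adjusted p = 0.0041). Alox15 lay below the array median on all 11-day arrays, with and without CsA, where a decrease would be hard to see.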

How the results depend on the processing

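Of 76 called member results, 65 held under all 10 other settings and without each of the 27 arrays, 11 were lost somewhere and none changed sign. The count from 12 h to 24 h of Flt3-L (3) was 5 with array weights and 1 to 3 without single arrays. The count of CsA effects differing between 48 h and 12 h (2) was 4 with array weights, 1 in the fit of only the groups compared and 1 to 2 without single arrays. Of 41 uncalled results, 10 were called somewhere (Alox5 with CsA at 48 h under 6 settings, the replicate block included) and 11, all near 0, changed sign. With each array's median subtracted, the CsA effect at 12 h was 0.04 for Alox15 and 0.04 for Alox5ap, and the effect of 48 h minus 12 h was -0.03 for Hpgd (-0.01 with an offset of 32 before log2, -0.13 with array weights). Normalized again by quantiles, the 12 h change with Flt3-L was 0.02 for Ephx1 (0.01 with array weights) and -0.02 for Ltc4s. Without single arrays the CsA effect at 12 h ran from -0.09 to 0.04 for Alox15, -0.03 to 0.02 for Alox5ap and -0.24 to 0.0042 for Ptgs2, and that of 48 h minus 12 h from -0.06 to 0.10 for Hpgd. The CsA effect on Ltc4s ran from -0.0029 to 0.13 at 24 h and -0.06 to 0.12 at 48 h, and its Flt3-L changes from -0.02 to 0.08, -0.13 to 0.01 and -0.02 to 0.12 at 12 h, 24 h and 48 h. The 12 h Flt3-L change of Ephx1 ran from -0.08 to 0.09, and the 12 h to 24 h step of Alox5 from -0.06 to 0.01.

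Over all genes, the 1341 calls with CsA at 12 h were 5301 with array weights, 2111 with the replicate block and 177 in the fit of only the groups compared. Without single arrays they were 332 (CsA array 2) to 3221 (CsA array 3). The 754 and 899 calls at 24 h and 48 h were 396 and 451 with only the groups compared. They were 475 without Flt3-L array 1 at 24 h and 586 without CsA array 1 at 48 h. The 154 calls of 48 h minus 12 h were 1472, 334 and 59 under the first 3 settings and 43 to 589 without single arrays. The block changed 2 member calls, that of Alox5 with CsA at 48 h and the rise of Ephx1 from 24 h to 48 h (0.32, adjusted p = 0.036, against 0.073). The cause of these shifts was not tested. The small number of arrays limits changes near 0.2 on the log2 scale.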
